A study of Arabidopsis thaliana with 12 samples.

Results

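The 6 nuclear genes for plastid sigma factors, SIG1 to SIG6, were followed through dark-grown and briefly illuminated Arabidopsis thaliana seedlings of the wild type and of a line with raised miR396a. They were taken by their gene identifiers, and all 6 were found among the 11417 genes that appear in at least 1 of the 6 deposited tables, each with a value in all 4 groups. Messenger RNA was sequenced from 12 libraries in 4 groups of 3 biological replicates. Col-0, the wild type of the Columbia ecotype, and 35S:miR396a, a line in the same ecotype that makes the microRNA miR396a from the 35S promoter of cauliflower mosaic virus, were each sampled without light and after 3 h of light. All seedlings had first grown for 4 days in darkness, on a medium with 1% sucrose. The 35S promoter acts in most plant tissues, so the line is not specific to a cell type, and the sources used here do not say how many independent transformants it stands for. The labels call the tissue hypocotyl while the growth protocol speaks of seedlings. No marker of hypocotyl alone was used. Of 6 root markers, SCR was in no table and the others had values in some groups only. PYK10 stood at 3007 and 6636 FPKM in dark and illuminated 35S:miR396a. WOX5 stood at 0.42 for Col-0 and 1.18 for 35S:miR396a in the light. COBL9 was at 0.73 FPKM for Col-0 without light and 1.54 for 35S:miR396a after light, and EXPA7 at 2.02 and 4.29. RHD6 had values for Col-0 only, 1.33 in the dark and 0.66 in the light. Each marker with a value for illuminated 35S:miR396a was thus higher there than in its other group. PYK10 aside, these levels were low. The part of root cells in the sigma factor values was not tested. As a check of the line, 6 of the 8 miR396 target genes on the list were called lower in 35S:miR396a in the dark, beside 10.6% of all genes in any table, and 6 in the light, beside 25.9%.

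Chloroplasts carry their own genome, and much of it is read by a bacterial-type enzyme, the plastid-encoded RNA polymerase. Its core is made in the plastid, but it cannot find its promoters without a sigma factor, a protein encoded in the nucleus and imported. The 6 Arabidopsis sigma factors differ in the promoters they favour, so the nucleus can set which plastid genes are read, and light-driven greening of an etiolated seedling depends on them: plants that lack SIG2 or SIG6 are pale as seedlings.

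The values are the authors' mean FPKM over a group, that is fragments scaled to transcript length and to the mapped fragments of the library. FPKM is a level per length, so levels may be compared between genes. No value of a single library is given, so no SD stands beside a mean, the value in each sample cannot be shown, and no difference could be set against the spread between replicates. A gene is called "listed" where the authors' deposited table holds it, which requires a change over 2-fold and a q-value under 0.001. The deposited p-values rest on reads pooled over a group and carry counting error only. Solved from them, the pooled libraries held about 1.14e+08 fragments for Col-0 in the dark and 1.18e+08 in the light, and 1.18e+08 and 1.27e+08 for 35S:miR396a. At that depth the sigma factor values rest on about 277 fragments at the least (SIG5 in dark 35S:miR396a) and 16153 at the most (SIG2 in illuminated Col-0). The 95% counting intervals given with the ratios treat these estimated fragments as Poisson counts. They cover counting error only and say nothing of the spread between seedlings or cultures. In whole-tissue RNA, fewer cells of a type and less RNA per cell cannot be told apart.

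The promoters are shown first for SIG5, whose transcript took another course than the rest, for SIG4, which fell after light in the same line, and for SIG3, whose window held the most matches. Each sequence is the 250 bases before the annotated transcript start, read on the gene's own strand from RefSeq's TAIR10.1 genome. Capitals mark every match, on either strand, to 1 of 5 motifs searched: the G-box CACGTG, the ACGT core bound by bZIP factors such as HY5, the GATAA core of the I-box found near light-regulated genes, the evening element AAAATATCT and the CCA1-binding site AAAAATCT of the circadian clock. A G-box also holds the ACGT core. The windows are chr5:8160344-8160593 for SIG5, chr5:4430902-4431151 for SIG4 and chr3:19963981-19964230 for SIG3, all on the minus strand. The SIG3 window overlaps AT3G00910, a non-coding gene, and the SIG5 and SIG4 windows overlap no other annotated gene.
SIG5: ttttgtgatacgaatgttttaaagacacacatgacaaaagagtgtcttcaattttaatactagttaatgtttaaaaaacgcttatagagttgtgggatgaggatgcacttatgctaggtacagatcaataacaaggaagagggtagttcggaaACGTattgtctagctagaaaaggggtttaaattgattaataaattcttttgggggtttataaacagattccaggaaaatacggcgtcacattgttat
SIG4: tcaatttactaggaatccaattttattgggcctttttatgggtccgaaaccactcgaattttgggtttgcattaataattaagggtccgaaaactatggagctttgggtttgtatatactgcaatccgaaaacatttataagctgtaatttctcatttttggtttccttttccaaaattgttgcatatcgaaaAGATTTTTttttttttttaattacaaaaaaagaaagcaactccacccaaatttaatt
SIG3: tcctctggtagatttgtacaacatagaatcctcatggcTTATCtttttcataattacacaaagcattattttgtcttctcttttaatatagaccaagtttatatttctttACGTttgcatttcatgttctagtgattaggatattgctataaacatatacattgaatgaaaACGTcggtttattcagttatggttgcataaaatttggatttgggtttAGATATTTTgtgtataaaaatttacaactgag

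No window of the 6 genes held a G-box, which 6.49% of 27443 protein-coding promoters of this length hold. The ACGT core was found in SIG3 at 140 and 79 bases before the start and in SIG5 at 97 bases before it, and in 44.1% of all promoters. GATAA was found in SIG1, SIG2, SIG3 and SIG6, at 154, 129, 212 and 137 bases before the start, and in 54.9% of all promoters. The windows of SIG1, SIG2 and SIG6 overlap the annotated genes AT1G64850, AT1G08530 and AT2G37000. With 50 bases after the start included, SIG4 held GATAA as well and SIG5 was the member without it, beside 60.8% of all promoters. The evening element was found in SIG3 (2.36% of all promoters) and the CCA1-binding site in SIG4 (6.69%). These are matches of letters, not measured binding.

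In dark Col-0 the 6 transcripts lay within 2.87-fold of each other. SIG6 (AT2G36990, RefSeq SIGF, chromosome 2, 15537225 to 15540139), a general sigma factor of young cotyledons, was the highest at 24.4 FPKM. It was followed by SIG2 (AT1G08540, chromosome 1, 2703295 to 2706860), which serves plastid transfer RNA genes, at 18.5 FPKM. SIG4 (AT5G13730, chromosome 5, 4429095 to 4430901), which serves a gene of the plastid NDH complex, stood at 15.2 FPKM and SIG1 (AT1G64860, RefSeq SIGA, chromosome 1, 24097736 to 24100970), which serves photosystem genes, at 14.2. The counting intervals of SIG4 and SIG1 overlapped, so their order is not settled even by depth. SIG3 (AT3G53920, RefSeq SIGC, chromosome 3, 19960789 to 19963980), which reads psbN, stood at 9.60 FPKM. SIG5 (AT5G24120, RefSeq SIGE, chromosome 5, 8157151 to 8160343), the factor of the blue-light promoter of psbD and a stress-responsive member of the family, was the lowest at 8.52.

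**Figure D1:**
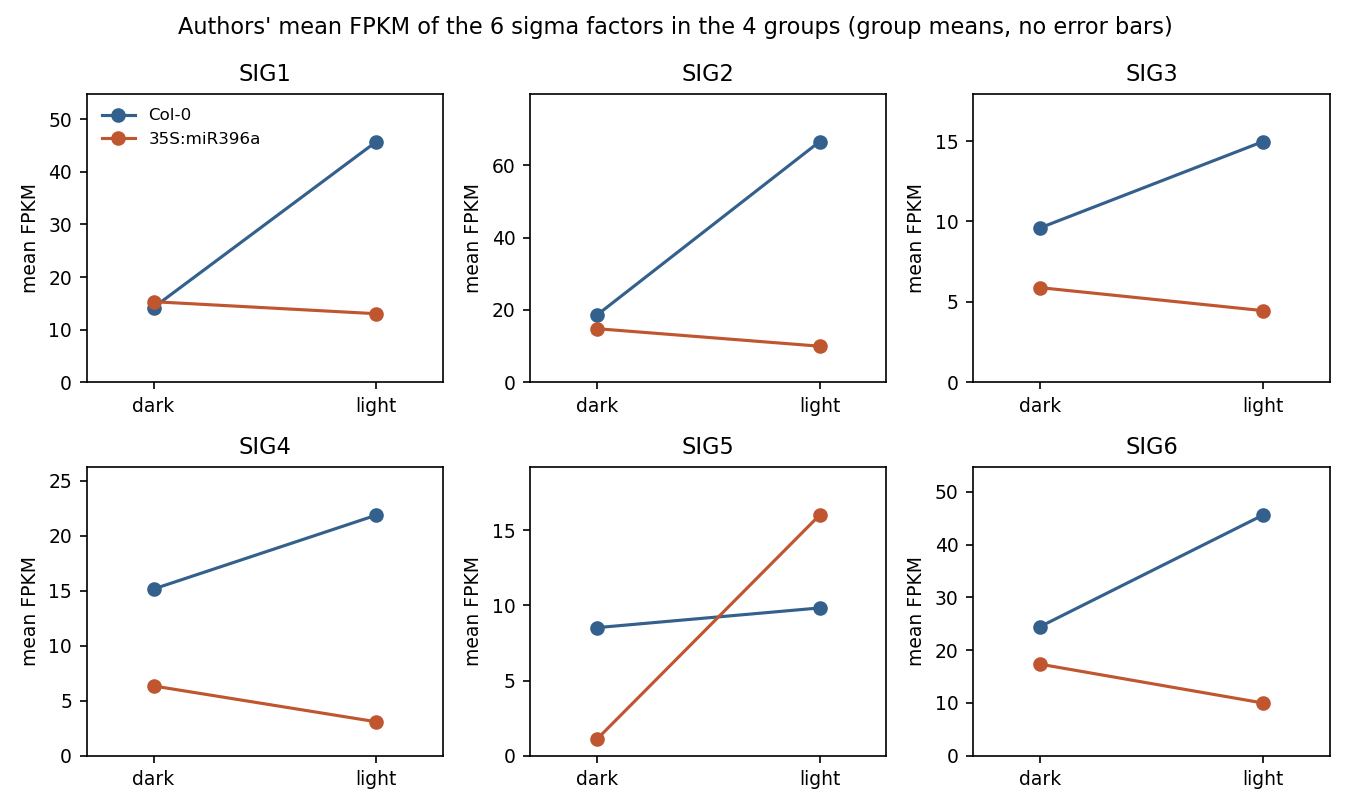
Authors' mean FPKM (vertical axis, linear, starting at 0) of each sigma factor in dark and light for Col-0 (blue) and 35S:miR396a (orange), each point a group mean with no error bar. SIG1, SIG2, SIG3, SIG4 and SIG6 slope up in Col-0 and down in 35S:miR396a, while SIG5 goes from 1.09 to 16.0 in 35S:miR396a.

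Light in Col-0 was compared with darkness to see which transcripts change over 3 h of de-etiolation, the change from growth in darkness to photosynthetic growth. SIG1 and SIG2 were listed higher. SIG2 went from 18.5 to 66.6 FPKM, 3.59-fold (counting interval 3.47 to 3.71), and SIG1 from 14.2 to 45.8, 3.22-fold (3.10 to 3.35). The authors' deposited table gives log2 folds of 1.85 and 1.69. The other members were not listed, although all of their means were higher in the light. SIG6 came nearest to the 2-fold limit, at 24.4 and 45.6 FPKM (ratio 1.86, counting interval 1.81 to 1.93). SIG3 was at 9.60 and 14.96 FPKM (ratio 1.56) and SIG4 at 15.2 and 21.9 (ratio 1.44). SIG5, known as a blue-light gene, was at 8.52 and 9.84 FPKM (ratio 1.15, counting interval 1.09 to 1.22), the smallest ratio of the 6. Thus 2 of 6 members were listed higher and none lower in the authors' deposited table, beside 17.0% of all genes in any table listed higher and 26.1% lower, 43.1% in either direction. Among annotated protein-coding genes 17.6% were listed. Past 4-fold there was no member, beside 14.7% of genes in any table, and with a q-value under 1e-10 the count was 2, beside 37.2%. The median log2(FPKM + 1) ratio of the 6 was 0.73, beside −0.11 over the 7778 genes with both values.

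Light changed the make-up of the family as well as its sum. The summed level of the 6 was 90.5 FPKM in dark Col-0 and 205 in illuminated Col-0. SIG2 made up 20.5% of the dark sum and 32.5% of the light sum, and SIG1 15.7% and 22.4%. SIG6 made up 27.0% and 22.3%, SIG4 16.8% and 10.7%, SIG3 10.6% and 7.31%, and SIG5 9.42% and 4.81%. SIG2 replaced SIG6 as the most abundant member, and the distance between the highest and the lowest member was 6.77-fold in the light. SIG1 and SIG6 stood at 45.8 and 45.6 FPKM there, with overlapping counting intervals.

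The same light was given to 35S:miR396a seedlings, in which SIG5 rose and SIG4 fell. SIG5 went from 1.09 to 16.0 FPKM, 14.7-fold (counting interval 13.1 to 16.7) (log2 fold 3.88 by the authors' deposited table). SIG4 went from 6.34 to 3.08 FPKM, a ratio of 0.486 (0.439 to 0.537) (log2 fold −1.03 by the authors' deposited table, just past the limit). The remaining members were not listed, and all of their means were lower in the light. SIG6 was at 17.3 and 9.98 FPKM (ratio 0.576), SIG2 at 14.8 and 9.96 (0.672), SIG3 at 5.88 and 4.45 (0.757) and SIG1 at 15.3 and 13.0 (0.851). So 1 of 6 members was listed higher and 1 lower, beside 20.6% and 23.1% of all genes in any table, 43.7% together, and 17.7% of protein-coding genes. Past 4-fold there was 1 member, SIG5, beside 15.5% of genes in any table, and with a q-value under 1e-10 there were 2, beside 36.5%. The median log2(FPKM + 1) ratio of the 6 was −0.43, beside −0.05 over 7756 genes.

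The summed level of the family was 60.8 FPKM in the dark and 56.5 in the light, and without SIG5 it was 59.7 and 40.5. SIG5 made up 1.79% of the sum in the dark and 28.3% in the light, where it was the most abundant of the 6. SIG4, the fourth of the order in the dark, was the lowest after light. SIG2, the most abundant member in illuminated Col-0, made up 17.6% of the sum in illuminated 35S:miR396a. Of 20 neighbouring pairs in the orders of the 4 groups, 5 had overlapping counting intervals: SIG4 with SIG1 in dark Col-0, SIG1 with SIG6 in illuminated Col-0, SIG1 with SIG2 and SIG4 with SIG3 in dark 35S:miR396a, and SIG6 with SIG2 in illuminated 35S:miR396a.

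**Figure D2:**
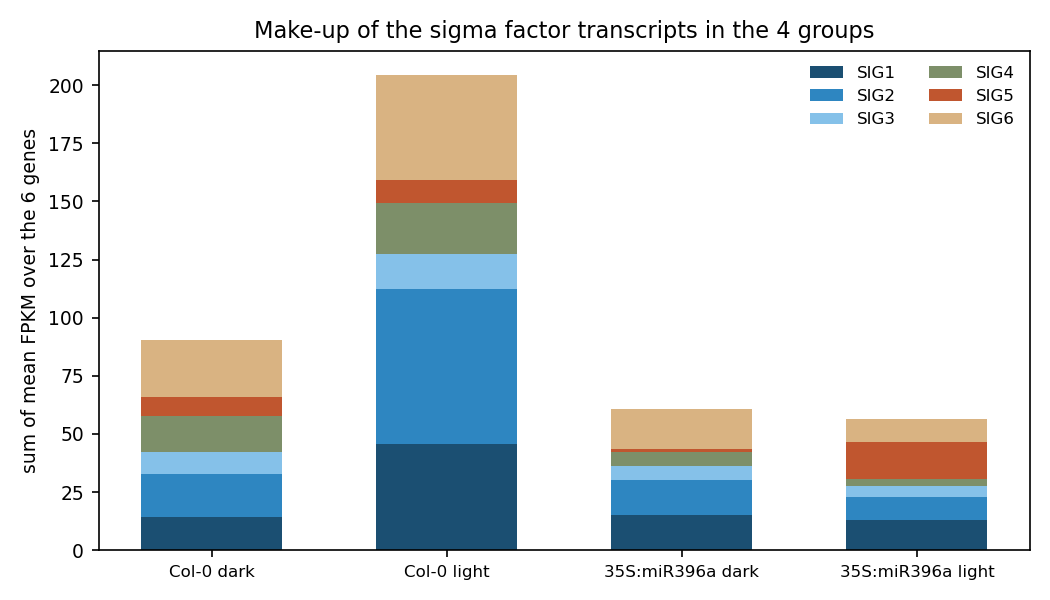
Stacked mean FPKM of the 6 sigma factors (vertical axis, summed FPKM from 0) in each group, with 1 colour a gene and no replicate error. The sum is 90.5 in dark Col-0, 205 in illuminated Col-0, 60.8 in dark 35S:miR396a and 56.5 in illuminated 35S:miR396a, where SIG5 takes 28.3%.

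Between genotypes in the dark, 2 members were lower in 35S:miR396a, SIG5 and SIG4. SIG5 was at 8.52 FPKM in Col-0 and 1.09 in 35S:miR396a, 7.85-fold lower (log2 fold −3.04 by the authors' deposited table). SIG4 was at 15.2 and 6.34 FPKM, 2.39-fold lower (log2 fold −1.26, q-value 9.37e-137 by the authors' deposited table). This comparison shares its dark 35S:miR396a libraries with that of light in 35S:miR396a, so their values are not independent. SIG3 was at 9.60 and 5.88 FPKM, SIG6 at 24.4 and 17.3 and SIG2 at 18.5 and 14.8, none of them listed. SIG1 was at 14.2 and 15.3 FPKM, the one mean of the 6 that was not lower. In the dark 10.6% of all genes in any table were listed lower and 8.74% higher, 19.3% together, and 7.54% of protein-coding genes. Past 4-fold there was 1 member, SIG5, beside 6.25% of genes in any table, and with a q-value under 1e-10 there were 2, beside 14.1%. The median log2(FPKM + 1) ratio of the 6 was −0.55 beside −0.02 over 7214 genes.

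Between genotypes in the light, 5 of the 6 members were lower in 35S:miR396a and none was listed higher. SIG4 was at 21.9 FPKM in Col-0 and 3.08 in 35S:miR396a, 7.10-fold lower, and SIG2 at 66.6 and 9.96, 6.69-fold lower. SIG6 was at 45.6 and 9.98 FPKM (4.57-fold), SIG1 at 45.8 and 13.0 (3.51-fold) and SIG3 at 14.96 and 4.45 (3.36-fold). The log2 folds of these 5 in the authors' deposited table ran from −1.74 for SIG3 to −2.81 for SIG4. SIG5 was not listed, at 9.84 and 16.0 FPKM (ratio 1.63, counting interval 1.55 to 1.71), the one member with the higher mean in 35S:miR396a. Among genes in any table, 25.9% were listed lower and 35.5% higher, 61.3% in all, and of protein-coding genes 24.8%. Past 4-fold there were 3 members, SIG2, SIG4 and SIG6, beside 20.8% of genes in any table, and with a q-value under 1e-10 there were 5, beside 52.9%. The median log2(FPKM + 1) ratio of the 6 was −1.91 beside 0.19 over 8798 genes.

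**Figure D3:**
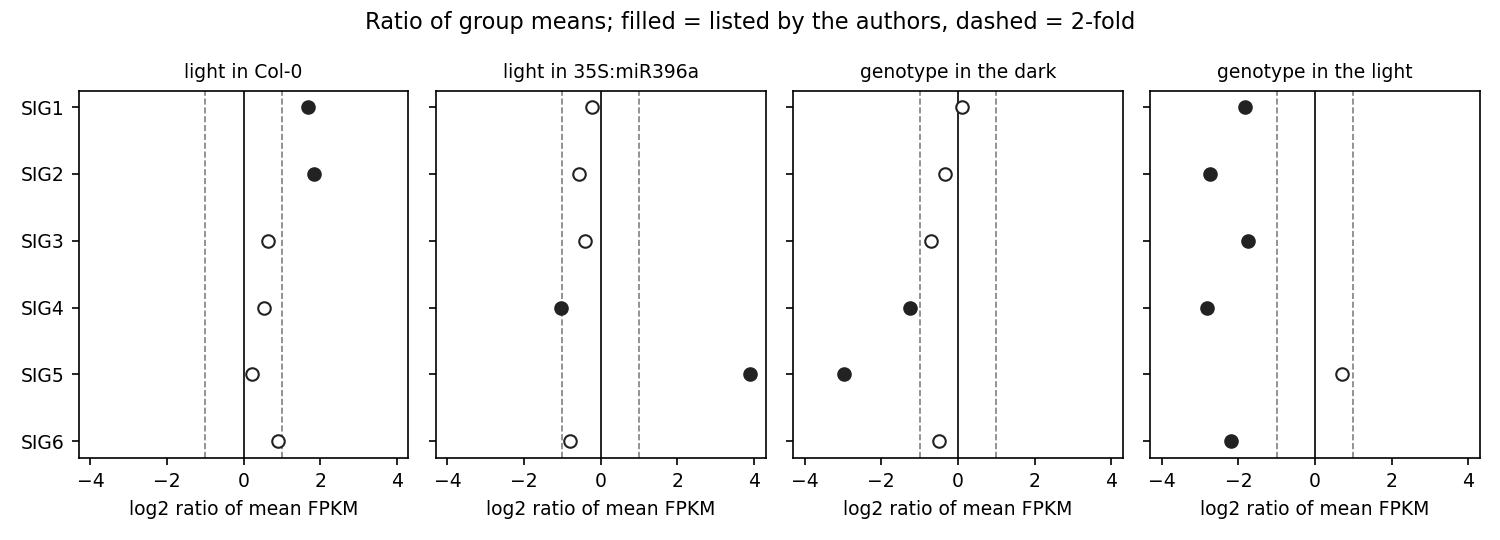
log2 ratio of the authors' mean FPKM (horizontal axis) for the 6 sigma factors in each of 4 comparisons, second group over first. Filled points are listed by the authors, dashed lines mark 2-fold, and in the light 5 members lie left of the lower line while SIG5 lies at a ratio of 1.63.

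The difference of the light response between genotypes was computed by subtracting the log2(FPKM + 1) change of Col-0 from that of 35S:miR396a, a value with no test because only group means are given. It was −2.32 for SIG2, −1.84 for SIG1, −1.61 for SIG6, −1.35 for SIG4 and −0.93 for SIG3. For SIG5 it was 2.84. Among the 6223 genes with a value in all 4 groups, 3.73% had a lower difference than SIG2 and 8.08% than SIG1, while 6.68% had a higher one than SIG5; SIG3, with 24.1% of genes below it, lay well inside the bulk. A mean that was higher after light in Col-0 and lower after light in 35S:miR396a was found for 5 of the 6 members and for 19.4% of those genes. SIG5, with a higher mean in the light in both genotypes, shared that course with 22.3% of them. Its mean was lower in dark and higher in illuminated 35S:miR396a than in Col-0 of the same condition, as for 27.4% of them. SIG5 was also listed lower by genotype in the dark and higher by light in 35S:miR396a, as were 4.95% of the 11417 genes in any table. Each table gives values for 2 groups, so a value in all 4 requires that a gene was listed in more than 1 table. The 6223 genes are thus selected for change in several comparisons, and shares among them are not shares of the whole genome.

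**Figure D4:**
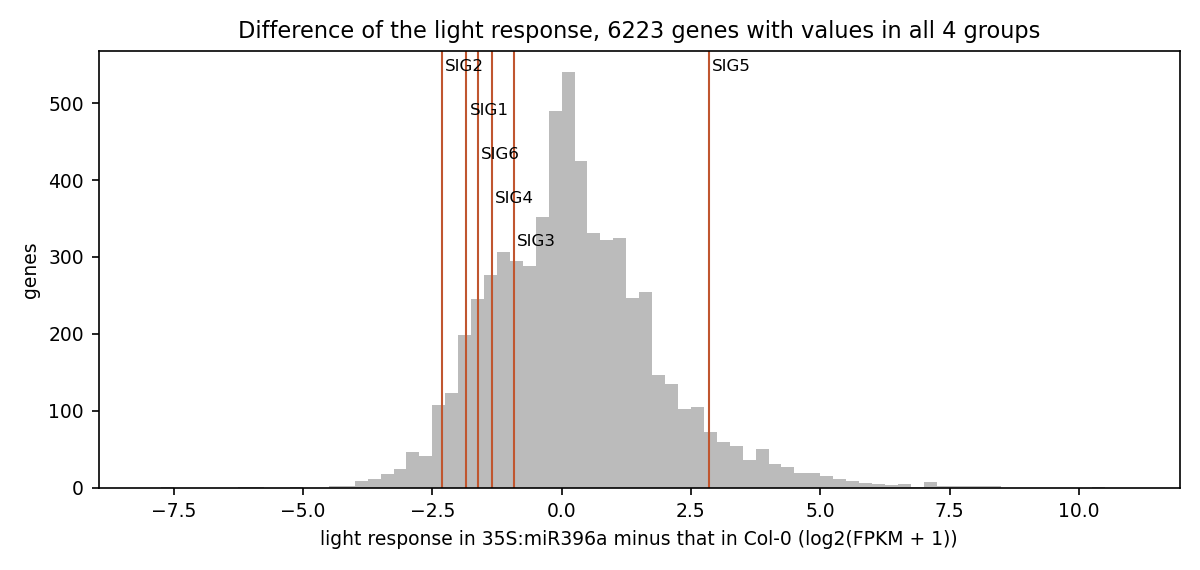
Histogram of the light response of 35S:miR396a after subtracting that of Col-0 (horizontal axis, log2(FPKM + 1)) for 6223 genes (vertical axis, number of genes), with a line for each sigma factor. SIG2 at −2.32 to SIG3 at −0.93 lie left of 0, and SIG5 at 2.84 lies on the right.

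The shapes of the members' profiles over the 4 group means were compared. Shares and nearest genes are over 5147 genes with a value in all 4 groups and a highest mean of at least 1 FPKM. As above, such genes are selected for change in several comparisons. The root mean square difference between centred log2(FPKM + 1) profiles was 0.20 for SIG3 and SIG6, the closest pair, and 0.30 for SIG4 and SIG6. All pairs without SIG5 lay between 0.20 and 0.67. Many other genes lay as near: 1.69% of genes were closer to SIG3 than SIG6 was and 1.48% closer to SIG4, but 11.7% were closer to SIG1 than SIG2 was and 26.9% than SIG4 was. SIG5 lay between 1.21 and 1.47 from the others, and 57.8% of genes were closer to it than SIG6 was. Among these 5147 genes, the gene nearest to SIG2 was GOX2, a glycolate oxidase of photorespiration, at a difference of 0.04. Nearest to SIG3 was FBA7, an aldolase (0.04), and nearest to SIG4 PMDH2, a peroxisomal malate dehydrogenase (0.09). SIG1 had AT2G18940 (0.03) and SIG6 had AT5G47190 (0.03) as their nearest genes, with HCF101, an iron-sulfur cluster carrier of the chloroplast, next to SIG6 (0.04). SIG5 had no gene as near: TIFY7, the jasmonate repressor JAZ9, lay at 0.21, with 26.7 and 24.2 FPKM in Col-0 in the dark and the light, and 5.93 and 39.9 in 35S:miR396a. These likenesses rest on 4 means each and are descriptions.

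Sigma factors act on a polymerase wrapped in nuclear-encoded partners, the PEP-associated proteins, which assemble around the core during greening. All 12 on the list were lower in illuminated 35S:miR396a than in illuminated Col-0, beside 25.9% of all genes in any table listed lower. PAP12/pTAC7 was at 105 and 23.8 FPKM (log2 fold −2.14 by the authors' deposited table). PAP8/pTAC6 was at 63.8 and 18.1 FPKM, and PAP5/HMR, which also acts in phytochrome signalling, at 17.5 and 4.99. In Col-0, 5 of the 12 rose with light and none fell, beside 17.0% of all genes listed higher and 26.1% lower: PAP2/pTAC2, PAP6/FLN1, PAP8/pTAC6, PAP10/TRXz and PAP12/pTAC7. PAP10/TRXz, a plastid thioredoxin, went from 9.14 to 30.5 FPKM. In 35S:miR396a none rose, beside 20.6% of all genes, and 2 fell, a share of the 12 below the 23.1% of all genes listed lower. These were PAP1/pTAC3, from 9.21 to 3.84 FPKM, and PAP9/FSD2, an iron superoxide dismutase, from 13.5 to 5.99. None of the 12 was listed between genotypes in the dark, beside 19.3% of all genes. Over those with both values, the median log2(FPKM + 1) ratio was 0.99 for light in Col-0 (9 genes), −0.60 for light in 35S:miR396a (9 genes) and −1.66 for genotype in the light (12 genes).

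Of 8 further regulators of plastid transcription, 5 were in some table, and SIB1 went another way than the rest. SIB1, which binds SIG1 in the plastid and is also a defence gene, was at 0.33 and 0.19 FPKM in Col-0 in the dark and the light, and at 0.083 and 11.7 in 35S:miR396a. Between genotypes in the light its log2 fold was 5.94 by the authors' deposited table. That fold rests on 0.19 FPKM in illuminated Col-0, a low level with no counting interval computed, so its size is uncertain. SIG1, the partner of SIB1, was lower in that comparison. FLN2, a relative of PAP6/FLN1, went from 7.85 to 22.9 FPKM with light in Col-0 and was lower in 35S:miR396a in the light, at 4.20 FPKM. GUN1, which relays the state of the plastid to the nucleus, rose from 62.4 to 186 FPKM in Col-0 and was at 80.6 and 81.8 in 35S:miR396a. AT4G28590, annotated as MRL7, and AT2G31840, annotated as MRL7-L, were also listed higher with light in Col-0 and lower in illuminated 35S:miR396a than in illuminated Col-0. Of the 8 on the list, 5 of them in some table, 4 were listed higher with light in Col-0 and none lower, beside 17.0% and 26.1% of all genes in any table. Between genotypes in the light 4 were listed lower and 1 higher, beside 25.9% and 35.5%. SIB2, CSK and PRIN2 were in no table, so their levels are not known here.

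**Figure D5:**
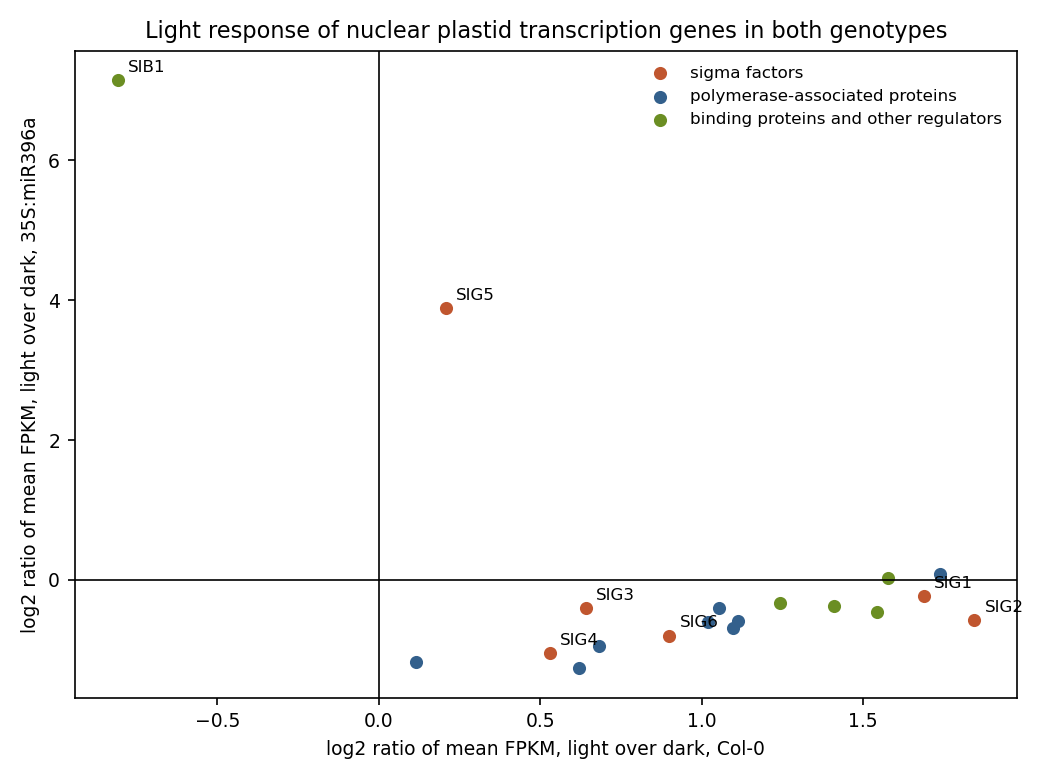
log2 ratio of mean FPKM, light over dark, in Col-0 (horizontal axis) and 35S:miR396a (vertical axis) for sigma factors (orange), PEP-associated proteins (blue) and other regulators (green) with a value in all 4 groups. Most points lie right of 0 on the horizontal axis and at or below 0 on the vertical axis, and SIG5 (14.7-fold in 35S:miR396a) and SIB1 stand far above them.

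The other polymerases of the organelles are single-subunit enzymes of the phage type that need no sigma factor. RPOTm and RPOTp were in no table. RPOTmp was listed only between dark Col-0 and illuminated 35S:miR396a, at 1.68 and 3.55 FPKM.

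The regulators that act upstream of SIG5 are known best, since SIG5 answers to blue light and the clock and the bZIP factors HY5 and HYH have been tied to its transcription. HYH rose with light in Col-0, from 7.87 to 26.0 FPKM, and in 35S:miR396a, from 2.78 to 34.4. HY5 fell with light in Col-0, from 60.0 to 19.4 FPKM, and rose in 35S:miR396a, from 16.9 to 39.5. In the dark both were called lower in 35S:miR396a. The clock factor CCA1 fell from 13.2 to 2.66 FPKM in Col-0 and stood at 8.89 and 9.97 in 35S:miR396a. Its partner LHY fell with light in both genotypes, from 9.81 to 1.58 FPKM in Col-0 and from 9.02 to 2.59 in 35S:miR396a. Among regulators of photosynthetic nuclear genes, GLK1 fell from 28.7 to 6.49 FPKM with light in 35S:miR396a and stood at 18.4 and 22.9 in Col-0. Its relative GLK2 fell with light in Col-0, from 161 to 55.5 FPKM, and was at 56.1 and 40.7 in 35S:miR396a, not listed with light there but listed lower than Col-0 in the dark. Of the 10 genes on this list, 8 of them in some table, 1 rose and 5 fell with light in Col-0 (17.0% and 26.1% of all genes in any table). In 35S:miR396a 2 rose and 3 fell (20.6% and 23.1%). CRY1 and CRY2, the blue-light receptors, were in no table. The part of these genes in the SIG5 values was not tested.

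The list also held 17 chloroplast-genome identifiers, chosen as loci for polymerase subunits or for genes that sigma factors read. Neither the tables nor the reference pairs these identifiers with gene names, so they are given as identifiers. Of the 17, 14 were in some table. In the dark 13 of these 14 were listed higher in 35S:miR396a and none lower, beside 8.74% of all genes in any table listed higher. In the light 6 of the 14 were listed higher, not far from the 35.5% of all genes listed higher there, so that count is no result about these loci. None was listed lower, beside 25.9% of all genes. The median log2(FPKM + 1) ratio in the light was 0.76 over the 11 loci with both values, beside 0.19 over 8798 genes. ATCG00270 was at 10.2 and 19.6 FPKM in Col-0 in the dark and the light, and at 44.4 and 43.9 in 35S:miR396a. The share of plastid RNA that such messenger RNA libraries capture was not tested.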

How the data were processed

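Messenger RNA libraries were sequenced on the BGISEQ-500 platform per the labels' protocols, and reads were handled with HISAT and Bowtie2 on TAIR10 per the submitters' processing notes; the sources used here give no versions and no strand setting. Each of the 6 deposited tables holds, per the file headers, the authors' mean FPKM of 2 groups, a log2 fold change (second group over first) and a DEGseq q-value and p-value; the series' design text names NOISeq instead. All listed genes had a fold over 2 and a q-value under 0.001 in the deposited files, so a gene outside a table has no call there. Group values were the same in all tables that list a gene. Columns of other series numbered 0.

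The members and lists were chosen with earlier results of these data known. Because the tables hold group averages, the model for single libraries that the design allowed for was not fitted, and the authors' calls were counted. Ratios are of mean FPKM; log2 values used a pseudocount of 1 unless said to be the deposited fold. Shares called are out of the 11417 genes in any table. Pooled reads were solved from the deposited fold and p-value under DEGseq's random-sampling model, and depth is the median over genes with transcripts of at least 1500 bases. Reads solved this way were set beside reads from depth, FPKM and transcript length. Depth comes from the same deposited values, so this shows consistency only. For SIG4 they were 784 and 785 for light in 35S:miR396a, and 1643 and 1652 for genotype in the dark. For SIG3 they were 1705 and 1744 for illuminated 35S:miR396a over dark Col-0, and 2402 and 2463 for dark 35S:miR396a over illuminated Col-0. The solver was tested on simulated data. Positions and promoters are RefSeq's on TAIR10.1. Named genes are the 6 members, list members, the 3 genes nearest to each member by profile, and genes that overlap a promoter window. Protein sequences were not used here. Python 3.11.15, pandas 2.3.3, numpy 2.4.6 and scipy 1.17.1 were used.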

Additional observations from a re-analysis of the deposited data

How the results depend on the processing

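All 24 log2 ratios of the sigma factors kept their direction with a pseudocount of 0.1 and when centred on the median of all genes, and all 11 that have a deposited fold had the same sign as that fold. Their sizes were less steady. When centred, 12 moved by more than the half-width of their counting interval, and with a pseudocount of 0.1, 13 stayed within it. All 11 differed from the deposited fold by more than that. For SIG5, genotype in the dark gave −2.19 beside a deposited −3.04, and light in 35S:miR396a 3.03 beside 3.88. At 4-fold in place of 2-fold, sigma factor calls numbered 0 for light in Col-0 (from 2) and 1 for light in 35S:miR396a (from 2). They numbered 1 for genotype in the dark (from 2) and 3 for genotype in the light (from 5). Calls in either direction among 23 other nuclear plastid transcription genes (18 in some table) and 17 chloroplast loci (14 in some table) numbered 1 (from 15), 1 (from 5), 9 (from 14) and 5 (from 23). Of all genes in any table, 14.7%, 15.5%, 6.25% and 20.8% were called at 4-fold. The 2-fold calls ran both ways: between genotypes in the dark 13 chloroplast loci were higher and 1 nuclear gene lower. Between genotypes in the light 6 chloroplast loci and 1 nuclear gene were higher and 16 nuclear genes lower. A q-value under 1e-10 changed none of the sigma factor counts. The difference of the light response, with a pseudocount of 0.1, was −2.41 for SIG2, −1.55 for SIG4 and 3.56 for SIG5, and centred on all genes it was −1.96 for SIG1, −2.44 for SIG2 and −1.73 for SIG6. Of the 18 nearest genes, 7 were the same with a pseudocount of 0.1. No paired analysis was possible because the tables hold group means, and for that reason no replicate could be left out. Counting error at the estimated depth is given with the ratios; the spread between replicates is unknown.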
